A study of Mus musculus with 12 samples.

Results

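The genes of neutrophil granules and calprotectin described here were chosen by name, with earlier results of these data known. They were followed through 12 RNA sequencing libraries of mouse bone marrow stromal cells, a sample type also entered in the labels as bone marrow stem cells. The genes are S100a8, S100a9, Camp, Lcn2, Ltf, Ngp, Mpo, Elane, Prtn3 and Prok2, 10 of the 21001 genes in the deposited tables. The cells came from C57BL/6 mice, had a genotype entered as wide type and carried green fluorescent protein (GFP), which all 4 groups share. NC was the primary culture of these cells. HOMING was GFP cells taken from the marrow of mice that had been injected under the skin with the GFP cells alone. BM was GFP cells taken from the marrow of tumour-bearing mice, which had been injected with the GFP cells together with Lewis lung carcinoma cells marked by red fluorescent protein (RFP-LLC). That line derives from a mouse lung tumour. TUMOR was GFP cells taken from the injection site after the same double injection. Each group had 3 libraries. Age, time after injection and the gate and purity of the sort are not given in the sources used here, and nothing says whether the 3 libraries came from separate animals or cultures. P-values therefore measure the spread between these libraries alone, which may be technical.

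Neutrophils fill their granules in a fixed order while they mature in the marrow. Promyelocytes make the azurophil, or primary, granules, which hold myeloperoxidase (Mpo) and the serine proteases neutrophil elastase (Elane) and proteinase 3 (Prtn3), and these are called the early genes here. Myelocytes and later stages make the specific, or secondary, granules with lactoferrin (Ltf), the antimicrobial cathelicidin (Camp), neutrophilic granule protein (Ngp) and lipocalin 2 (Lcn2), the late genes. S100a8 and S100a9 encode the subunits of calprotectin, a calcium- and zinc-binding protein that fills the neutrophil cytosol, and Prok2 encodes prokineticin 2, a secreted peptide made by activated neutrophils and monocytes. Lcn2 captures bacterial siderophores and is also made outside blood cells, among them epithelial and stromal cells under inflammatory signals.

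In mice, PU.1 (Spi1) is known as a regulator of early granule genes and C/EBP epsilon (Cebpe) of late ones. The stretches just before the gene starts were searched for letters those factors are known to read, which some of the genes held. The 250 bases before the start are printed for the 3 late genes with a C/EBP match and all 3 early ones. They come from RefSeq on build GRCm38.p6, which is not the build the authors mapped to. Each runs 5′ to 3′ on the strand of its gene, and capitals mark matches to TTGCNNAA (C/EBP) or GAGGAAG (PU.1) on either strand.
Ngp (chr9:110419558-110419807, plus strand): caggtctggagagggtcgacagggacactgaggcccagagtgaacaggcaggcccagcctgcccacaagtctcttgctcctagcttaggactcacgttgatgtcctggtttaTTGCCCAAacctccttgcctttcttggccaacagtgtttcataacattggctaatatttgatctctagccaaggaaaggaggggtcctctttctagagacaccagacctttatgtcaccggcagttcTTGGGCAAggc
Ltf (chr9:111019042-111019291, plus strand): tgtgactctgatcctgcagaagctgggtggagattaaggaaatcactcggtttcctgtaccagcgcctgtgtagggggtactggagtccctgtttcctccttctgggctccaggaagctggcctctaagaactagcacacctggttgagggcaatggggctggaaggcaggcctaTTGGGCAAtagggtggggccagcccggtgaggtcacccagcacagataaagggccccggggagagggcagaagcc
Lcn2 (chr2:32387740-32387989, minus strand): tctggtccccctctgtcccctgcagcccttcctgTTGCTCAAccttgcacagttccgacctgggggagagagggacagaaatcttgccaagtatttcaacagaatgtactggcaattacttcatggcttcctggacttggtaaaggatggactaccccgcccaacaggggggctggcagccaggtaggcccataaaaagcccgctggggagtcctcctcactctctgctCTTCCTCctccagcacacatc
Elane (chr10:79886062-79886311, plus strand): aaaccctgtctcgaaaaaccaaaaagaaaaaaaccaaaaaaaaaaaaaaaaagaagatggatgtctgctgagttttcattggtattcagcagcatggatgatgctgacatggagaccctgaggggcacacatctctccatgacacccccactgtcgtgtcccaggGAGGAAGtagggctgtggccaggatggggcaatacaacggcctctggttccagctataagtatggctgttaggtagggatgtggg
Prtn3 (chr10:79879417-79879666, plus strand): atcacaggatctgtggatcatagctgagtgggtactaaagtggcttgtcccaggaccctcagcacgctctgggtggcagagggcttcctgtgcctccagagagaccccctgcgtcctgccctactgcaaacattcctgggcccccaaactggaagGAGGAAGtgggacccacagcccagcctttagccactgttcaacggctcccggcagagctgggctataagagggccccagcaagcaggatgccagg
Mpo (chr11:87793534-87793783, plus strand): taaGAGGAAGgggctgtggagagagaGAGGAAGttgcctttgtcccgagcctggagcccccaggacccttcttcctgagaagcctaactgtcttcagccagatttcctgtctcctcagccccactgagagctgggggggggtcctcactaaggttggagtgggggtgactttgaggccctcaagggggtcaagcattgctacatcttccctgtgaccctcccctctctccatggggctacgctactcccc
All 3 early genes held GAGGAAG and none held TTGCNNAA. Ngp, Ltf and Lcn2 held TTGCNNAA, as did S100a9, while Camp held neither motif. GAGGAAG also stood before Lcn2 and S100a8. Of the 32851 windows of this length in the table, 9.56% held TTGCNNAA and 10.6% held GAGGAAG. No match to the NF-kB consensus was found in these windows, against 3.9% of the table. The RUNX letters TGTGGT stood before Prok2 and S100a9, against 14% of the table. The TATA box letters TATAAA stood before Prok2 and S100a8, against 12.4% of the table. Motifs were chosen after the sequences were seen, no 2 of the matches marked in capitals overlapped, and a match is a string of letters, not a bound site.

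Library totals were 43232145 to 46166519 expected counts, and 12314 genes had at least 1 FPKM (a level corrected for transcript length and library size) in at least 3 libraries. Levels are FPKM, and group values are mean ± SD with n = 3. Changes are log2 fold changes ± SE from edgeR's quasi-likelihood test, and a gene was called higher or lower at a Benjamini-Hochberg adjusted p under 0.05 over the 12314 genes and at least a 2-fold change. The 10 members all passed the expression filter, but Ltf, Mpo, Elane and Prok2 reached 1 FPKM in the HOMING libraries alone and could pass only by being high there. Without the HOMING libraries 5 members would pass, S100a8, S100a9, Camp, Lcn2 and Ngp. The stromal label was checked on 8 markers. Their summed level was 565 to 623 FPKM in NC, 356 to 392 in HOMING, 433 to 463 in BM and 395 to 508 in TUMOR, most of it collagen, while Thy1 reached at most 0.68 FPKM and Lum at most 0.44 FPKM in any library. Blood-cell markers set HOMING apart. The 5 pan-leukocyte markers (Ptprc, Coro1a, Laptm5, Vav1 and Rac2) summed to 109 to 187 FPKM in HOMING, 7.7 to 8.21 in BM, 0.14 to 0.52 in TUMOR and 0.11 to 0.17 in NC, and 6 erythroid markers to 1920 to 3130, 2.28 to 2.98, 0.99 to 1.95 and 0.31 to 0.66 FPKM. Their part in the results on the 10 genes was not tested, and in such bulk libraries fewer cells of a type and less RNA per cell cannot be told apart.

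**Figure D1:**
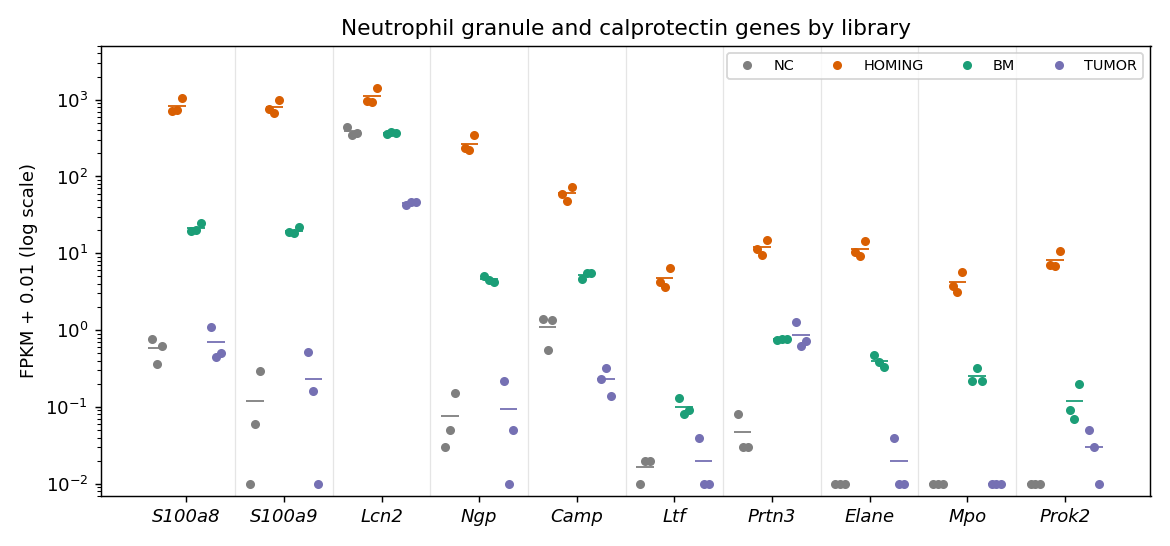
FPKM plus 0.01 on a log scale for the 10 genes, one point per library (replicates 1 to 3 from left to right) and a line at the group mean. HOMING is the highest group for every gene, BM is next for all but Lcn2 and Prtn3, and Lcn2 alone is high in NC.

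Marrow cells from mice given stromal cells alone carried by far the most transcript of this set. In BM, the marrow of tumour-bearing mice, all 10 genes were lower than in HOMING, by 2.98 to 74.2 times as a ratio of mean FPKM. In the test 10 of 10 members were called lower and 0 higher, where 6.68% of all genes tested were called lower and 3.71% higher. Ltf, Mpo, Elane and Prok2 could pass the filter only by being high in HOMING, and Prtn3 would not pass without it. The filter therefore favoured a lower call for these. S100a8, S100a9, Camp, Lcn2 and Ngp, the 5 that would pass without HOMING, were called lower as well. Adjusted p of the 10 ran from 3.31e-10 to 5.08e-06 in edgeR's quasi-likelihood test. The median log2 change of the members was -5.04, beside -0.005 over all genes tested.

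In both marrow groups the calprotectin pair was the most abundant after Lcn2. S100a8 (Entrez 20201) was at 706.5, 743 and 1054 FPKM in HOMING replicates 1 to 3 and at 19.3, 19.9 and 24.8 in BM. It stood at 0.76, 0.35 and 0.62 FPKM in NC and at 1.1, 0.44 and 0.5 in TUMOR. The groups thus stepped down from HOMING to BM and from BM to the other 2, and NC and TUMOR overlapped. S100a8 fell by 5.26 ± 0.17 on the log2 scale from HOMING to BM. S100a9 (Entrez 20202), its binding partner, was at 750.2, 671 and 980.25 FPKM in HOMING and at 19.04, 18.4 and 21.9 in BM, and it fell by 5.31 ± 0.19 on the log2 scale. The pair kept near parity wherever it was abundant, with S100a8 to S100a9 ratios of FPKM of 0.942, 1.11 and 1.07 in HOMING and 1.01, 1.08 and 1.13 in BM. In NC the 3 libraries held 25 counts of S100a8 and 7 of S100a9, of which 6 lay in replicate 3. TUMOR held 28 and 13 counts.

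Of 12 other S100 genes 9 were tested, and 0 were called higher or lower in BM against HOMING. Over all genes tested 3.71% were called higher and 6.68% lower. The median log2 change of the 9 was -0.57. Those named for their level were high in all 4 groups, as is known for fibroblasts. S100a6 was at 1266 FPKM in HOMING and 973 in BM, S100a11 at 1222 and 748, S100a4 at 844 and 472, and S100a10 at 386 and 254. Their log2 changes ran from -0.35 ± 0.16 for S100a6 to -0.81 ± 0.11 for S100a4, below the 2-fold minimum, with adjusted p in edgeR of 0.0714 for S100a6 and 1.05e-06 to 8.19e-05 for the other 3.

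Late granule genes split into a pair that fell steeply and a pair that fell less. Ngp (Entrez 18054), a cystatin-related protein of specific granules, was at 234, 219 and 347 FPKM in HOMING and at 5, 4.54 and 4.24 in BM, and it fell by 5.83 ± 0.22 on the log2 scale. NC held 10 counts of it and TUMOR 12. Ltf (Entrez 17002), the iron-binding protein lactoferrin, was at 4.17, 3.58 and 6.43 FPKM in HOMING and at 0.12, 0.07 and 0.08 in BM, and it fell by 5.64 ± 0.37. on the log2 scale Its BM level rested on 33 counts, and NC and TUMOR held 2 and 4. The changes of Ngp and Ltf lay within each other's error, although their HOMING levels differed widely.

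Camp (Entrez 12796), whose product is the antimicrobial peptide cathelicidin, was at 58.4, 48.5 and 73.3 FPKM in HOMING and at 4.67, 5.56 and 5.48 in BM, and it fell by 3.49 ± 0.20. on the log2 scale Unlike Ngp it had some signal in culture, at 1.37, 0.54 and 1.33 FPKM in NC from 78 counts, against 0.22, 0.31 and 0.13 FPKM in TUMOR. The ratio of Camp to Ngp FPKM was 0.25, 0.222 and 0.211 in HOMING and 0.934, 1.22 and 1.29 in BM, so the ranges of the marrow groups lay apart. In NC it was 9.5 to 68.5, on few counts of Ngp.

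Lcn2 (Entrez 16819) changed least of the 10 between HOMING and BM, and it was the only member above 2 FPKM in cultured cells. It was at 442, 346 and 366 FPKM in NC, 956, 933 and 1421 in HOMING, 359, 383 and 367 in BM and 42.3, 46.4 and 47.01 in TUMOR. HOMING was above all other libraries, TUMOR was below all others, and BM lay within the range of NC. Lcn2 fell by 1.55 ± 0.14 on the log2 scale from HOMING to BM, and against NC it was called higher in HOMING (log2 1.42 ± 0.14) and lower in TUMOR (log2 -3.21 ± 0.15). BM against NC was not called at log2 -0.13 (95% interval -0.43 to 0.16, adjusted p 0.413 in edgeR). Lcn2 made up 99.3 to 99.7% of the summed FPKM of the 10 genes in NC, 86.4 to 88.5% in BM and 34.9 to 36.2% in HOMING. In BM the annotated transcript NM_008491 gave 343.86, 368.46 and 349.96 FPKM, and transcripts assembled by the authors gave the rest.

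The early genes fell too, by less than Ngp and Ltf. Elane (Entrez 50701), neutrophil elastase, was at 10.4, 9.09 and 14.3 FPKM in HOMING and at 0.47, 0.37 and 0.32 in BM, and it fell by 4.83 ± 0.27. on the log2 scale Mpo (Entrez 17523), which makes hypochlorous acid from peroxide, was at 3.69, 3.12 and 5.72 FPKM in HOMING and at 0.21, 0.31 and 0.21 in BM, and it fell by 4.07 ± 0.30. on the log2 scale Prtn3 (Entrez 19152), the protease beside Elane on chromosome 10, was at 11.2, 9.43 and 15.02 FPKM in HOMING and at 0.73, 0.76 and 0.76 in BM, and it fell by 3.95 ± 0.26. on the log2 scale Counts over the 3 BM libraries were 44 for Elane, 82 for Mpo and 92 for Prtn3, so these levels are far less precise than those of calprotectin. Prok2 (Entrez 50501) fell by 6.12 ± 0.36 on the log2 scale, more than the other 9, from 7.07, 6.78 and 10.6 FPKM in HOMING to 0.08, 0.06 and 0.19 in BM. That BM level came from 21 counts, of which 12 were in replicate 3, and without BM replicate 3 the log2 change was -6.74.

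**Figure D2:**
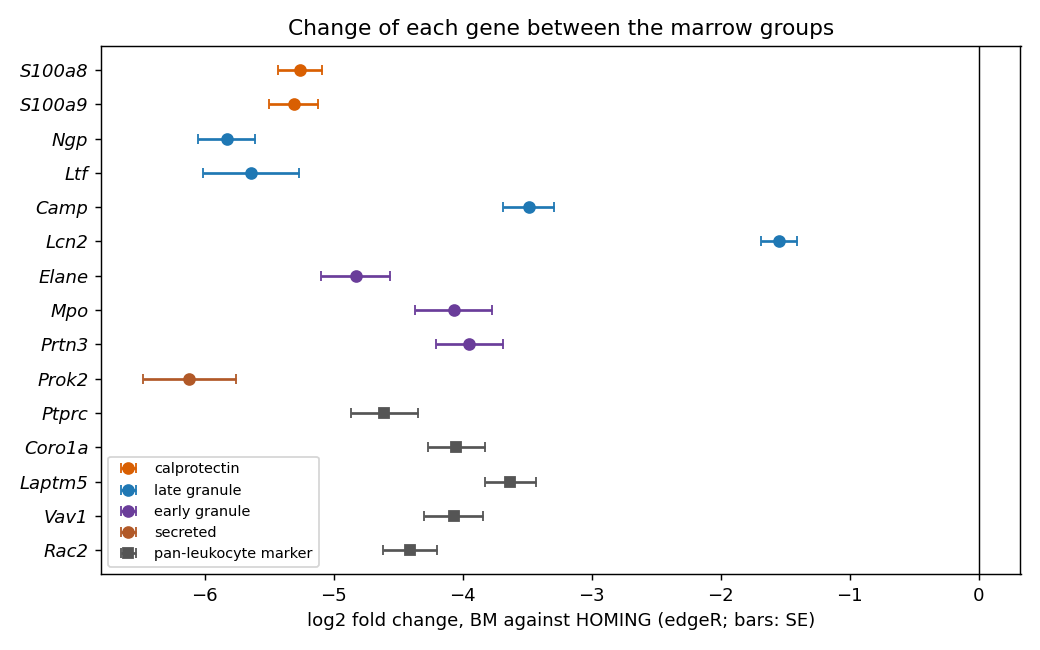
Log2 fold change of each gene in BM against HOMING from edgeR, with bars for the SE, for the 10 genes by class and for 5 pan-leukocyte markers. Early genes lie from -4.83 to -3.95, late genes from -5.83 to -1.55, and the pan-leukocyte markers from -4.61 to -3.63.

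Early and late genes did not form separate ranges. The 3 early changes lay between -4.83 and -3.95 and the 4 late ones between -5.83 and -1.55, with Ngp and Ltf below every early gene and Camp and Lcn2 above. Summed by library, early FPKM was 25.3, 21.6 and 35.05 in HOMING and 1.41, 1.44 and 1.29 in BM. As a percent of early plus late FPKM this was 1.98, 1.76 and 1.86% in HOMING and 0.381, 0.364 and 0.341% in BM. Leaving out Lcn2, a choice made after its level in culture was seen, turned the order round. The early percent was then 7.88, 7.39 and 7.58% in HOMING and 12.6, 12.4 and 11.6% in BM. Leaving out Ngp as well turned it back, to 28.8, 29.3 and 30.5% in HOMING and 22.7, 20.4 and 18.8% in BM. The direction of an early to late shift between the marrow groups therefore depends on which abundant late genes are counted.

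Set against the pan-leukocyte markers, whose 5 genes were all called lower in BM at log2 -3.63 to -4.61, the members were of 3 kinds. This ratio was added after the values were seen. The level of Mpo relative to the marker sum was 0.0303 ± 0.00163 in HOMING and 0.0305 ± 0.00631 in BM, and that of Prtn3 was 0.0877 ± 0.00809 and 0.0945 ± 0.00361, with overlapping groups for both. S100a8 went from 6.17 ± 0.58 to 2.69 ± 0.459, S100a9 from 5.94 ± 0.629 to 2.5 ± 0.309, Ngp from 1.96 ± 0.0839 to 0.579 ± 0.0462 and Ltf from 0.0343 ± 0.0016 to 0.0114 ± 0.00344. Elane and Prok2 were also lower in BM, at 0.586 and 0.234 times their HOMING ratio, and without BM replicate 3 the value of Prok2 was 0.145. Camp at 1.48 times and Lcn2 at 5.73 times were higher in BM. Both also had transcript in NC, at 1.08 and 385 FPKM, where the marker sum was 0.11 to 0.17 FPKM. The ratio of Camp and Lcn2 therefore cannot be read as a level per leukocyte. These ratios are a description and were not tested.

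**Figure D3:**
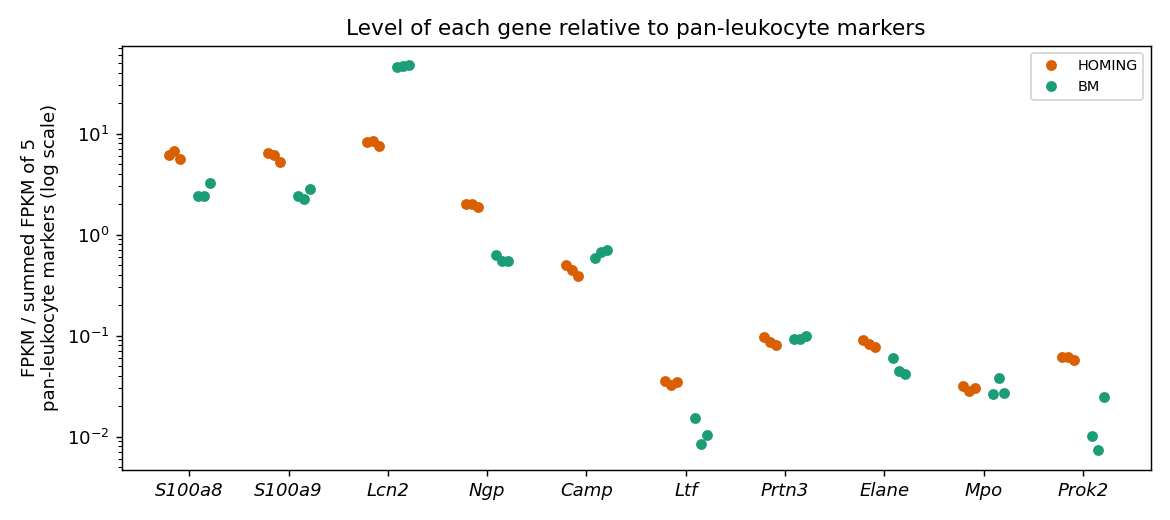
FPKM of each gene divided by the summed FPKM of 5 pan-leukocyte markers, on a log scale, for the 3 HOMING and 3 BM libraries (replicates 1 to 3 from left to right). Mpo and Prtn3 overlap between the groups, Camp and Lcn2 are higher in BM, and the other 6 genes are lower in BM.

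Among the HOMING libraries, replicate 3 was the highest for all 10 genes, at 1.37 to 1.68 times the mean of replicates 1 and 2. The pan-leukocyte markers were 1.6 to 1.79 times higher in it and the erythroid markers 1.56 to 1.87 times, while the 8 stromal markers were mixed. Col1a1, Col1a2, Pdgfrb, Pdgfra and Vcam1 were at 0.91 to 1.11 times, and Eng, Thy1 and Lum at 1.42, 1.64 and 1.69 times. Without HOMING replicate 3 the 10 genes were all still called lower in BM, with log2 changes of -1.32 for Lcn2 to -5.88 for Prok2. Their spread among the HOMING libraries was alike, with a coefficient of variation of 20.1 to 32.7%.

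Partner genes of each granule class were lower in BM too. Of 6 azurophil partners 5 were tested and 5 were called lower in BM than in HOMING, where 6.68% of all genes tested were. Ctsg, Ms4a3, Ctsc and Cst7 among them reached 1 FPKM in HOMING alone and could pass the filter only by being high there. Srgn, the proteoglycan core that packs granule proteins, went from 65 to 4.05 FPKM (log2 -3.97 ± 0.19) and Ctsc, the peptidase that activates the serine proteases, from 3.46 to 0.303 FPKM (log2 -3.41 ± 0.20). Cathepsin G (Ctsg) went from 8.39 to 0.503 FPKM (log2 -4.02 ± 0.20) and Ms4a3, a gene of granulocyte and monocyte progenitors, from 3.78 to 0.0733 FPKM (log2 -5.64 ± 0.34). The 10 specific granule partners were all tested and all called lower, although Cd177, Fcnb and Olfm4 likewise reached 1 FPKM in HOMING alone. Chil3 (chitinase-like 3) changed by log2 -4.52 ± 0.20, the collagenase Mmp8 by -3.55 ± 0.19, the neutrophil antigen gene Cd177 by -4.43 ± 0.23 and lysozyme Lyz2, which macrophages make too, by -3.41 ± 0.23. Median log2 changes were -3.97 for the azurophil and -3.61 for the specific partners.

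Genes of the last granules and of mature neutrophils fell as well. All 9 gelatinase granule and secretory vesicle genes were called lower, with a median log2 change of -3.44. Over all genes tested 6.68% were called lower in BM than in HOMING and 3.71% higher, the shares for each count in this paragraph. Mmp25 reached 1 FPKM in HOMING alone and could pass the filter only by being high there. Among the 9 the formyl peptide receptor gene Fpr2 changed by -4.84 ± 0.18, Fpr1 by -4.28 ± 0.22, the integrin gene Itgam by -4.04 ± 0.21 and the metal transporter gene Slc11a1 by -3.44 ± 0.20. Of 12 mature neutrophil surface and signal genes 10 were tested and 10 called lower. Cxcr2, Csf3r, Retnlg, Trem1, Il1r2 and G0s2 likewise reached 1 FPKM in HOMING alone. The growth factor receptor gene Csf3r changed by -4.27 ± 0.22, the lectin receptor gene Clec4d by -4.08 ± 0.23, interleukin 1 beta (Il1b) by -2.85 ± 0.16 and the decoy receptor gene Il1r2 by -5.79 ± 0.34. The 5 neutrophil markers summed to 34.4 to 55.5 FPKM in HOMING and 3.05 to 3.31 in BM, most of it Mmp8. Among them Csf3r and Retnlg were at 6.11 and 3.41 FPKM in HOMING and 0.31 and 0.0133 in BM. Ly6g was at 0.79 to 1.39 FPKM in HOMING and 0.1 to 0.21 in BM, and the chemokine receptor gene Cxcr2 at 1.04 to 1.3 and 0.18 to 0.31. Markers of macrophages moved the same way, with 7 of 8 tested and 6 called lower, and so did 6 of 6 erythroid, 4 of 5 megakaryocyte and 3 of 3 tested basophil, mast cell and eosinophil markers. The filter limit holds for some of these too, such as Adgre1, Alas2, Gp9, Epx and Prg2. T and NK cell markers summed to at most 1.1 FPKM in HOMING, where Klrb1c was at 0. The other B cell markers beside Ebf1, which stromal cells also express, missed the filter.

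Of 9 transcription factors of the granulocyte line 8 were tested, 4 were called lower in BM than in HOMING and 0 higher. Over all genes tested 6.68% were called lower and 3.71% higher. Cebpe, Irf8 and Myb reached 1 FPKM in HOMING alone and could pass the filter only by being high there. Spi1, encoding PU.1, went from 40.8 to 2.05 FPKM (log2 -4.29 ± 0.20), Cebpe from 2.69 to 0.0667 FPKM (log2 -5.32 ± 0.44), Irf8 from 3.33 to 0.25 FPKM (log2 -3.70 ± 0.34) and Myb from 2.16 to 0.913 FPKM (log2 -1.23 ± 0.15). Cebpe was at 2.54, 1.95 and 3.57 FPKM in HOMING and at 0.06, 0.1 and 0.04 in BM. Cebpb, Cebpd, Cebpa and Runx1 were not called, at log2 0.87 ± 0.09, 0.73 ± 0.09, -0.41 ± 0.08 and 0.41 ± 0.10.

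Against primary culture, 10 of 10 members were called higher in HOMING, where 9.64% of all genes tested were called higher and 4.69% lower. This comparison shares the HOMING libraries with the previous one, so its direction is not separate evidence. The filter limit on Ltf, Mpo, Elane, Prtn3 and Prok2 holds here as well. The 3 NC libraries held 0 counts of Mpo, Elane and Prok2. Taking 3 counts over the whole NC group as the floor, HOMING was at least 479-fold, 437-fold and 515-fold higher for these. Ltf, with 1676 counts against 2, gave a ratio of 869 with an exact 95% interval of 240.0 to 7180 that covers counting error only. S100a8 rose by log2 10.37 ± 0.26, Camp by 5.68 ± 0.25 and Prtn3 by 8.0 ± 0.39. S100a9 rose by log2 12.64 ± 0.34 and Ngp by 11.82 ± 0.36. NC replicate 3 held most of the few NC counts of S100a9 and Ngp, and without it their log2 changes were 14.63 and 12.92. Without NC replicate 1 that of Prtn3 was 8.67.

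In BM, too, 9 of 10 members were above primary culture, where 7.93% of all genes tested were called higher and 3.57% lower. Lcn2 was the exception, as given above. S100a8 rose from 0.577 ± 0.208 to 21.3 ± 3.03 FPKM (log2 5.11 ± 0.34), and Camp from 1.08 ± 0.468 to 5.24 ± 0.492 FPKM (log2 2.19 ± 0.27). S100a9 rose by log2 7.33 ± 0.45 and Ngp by 5.99 ± 0.51, and without NC replicate 3 these were 9.32 and 7.09. Prtn3 rose by 4.05 ± 0.52, or 4.72 without NC replicate 1. Mpo was at least 27.9-fold higher, Elane at least 15-fold and Prok2 at least 7.14-fold, against the same floor, with 12 of the 21 counts of Prok2 in BM replicate 3. For Ltf 33 counts against 2 gave a ratio of 16.8 (exact 95% interval 4.31 to 145). The calls of Ltf, Mpo, Elane, Prtn3 and Prok2 were lost in limma on log2(FPKM + 1), where levels under 1 FPKM give small changes. In that fit 4 members were called.

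At the injection site 3 of the 10 genes differed from culture. In TUMOR against NC 1 member was called higher, Prtn3, and 2 lower, Lcn2 and Camp, where 9.75% of all genes tested were called higher and 6.65% lower. Lcn2 fell from 385 ± 50.7 to 45.2 ± 2.54 FPKM, as given above. Camp fell from 1.08 ± 0.468 to 0.22 ± 0.09 FPKM (log2 -2.40 ± 0.47). Prtn3 rose from 0.07, 0.02 and 0.02 FPKM in NC to 1.25, 0.61 and 0.72 in TUMOR (log2 4.21 ± 0.51, adjusted p 7.43e-06 in edgeR), on 102 counts against 5. Without NC replicate 1 its log2 change was 4.87. In limma on log2(FPKM + 1) the log2 differences of Camp and Prtn3 were -0.75 and 0.83, under the 2-fold minimum. The other 7 genes were not called, and their counts bound them loosely. S100a8 was at log2 0.11 (95% interval -1.39 to 1.61), S100a9 at 0.81 ± 1.25 and Ngp at 0.21 ± 1.27. Ltf, with 4 counts against 2, gave a ratio of 2.1 (exact 95% interval 0.301 to 23.2), and Mpo, Elane and Prok2 had too few counts in both groups for a fold. The signs of S100a8, S100a9, Ngp and Ltf turned without TUMOR replicate 1.

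Prtn3 was in TUMOR without the genes it is usually found with. Over the 3 TUMOR libraries Mpo and Ctsg held 0 counts and Elane 1 count, in replicate 1. In BM the same genes held 82, 64 and 44 counts beside 92 of Prtn3. Prtn3 in BM was not called against TUMOR at log2 -0.15 (95% interval -0.80 to 0.49), and without TUMOR replicate 1 this was 0.22. The pan-leukocyte markers summed to 0.14 to 0.52 FPKM in TUMOR and 0.11 to 0.17 in NC, and 0 of the 5 were called. The neutrophil markers summed to 0.24 to 0.45 and 0.16 to 0.36 FPKM, with Retnlg at 0 in both groups and 0 of 4 tested called. The macrophage and monocyte markers summed to 25.7 to 26.5 FPKM in TUMOR and 13.7 to 20 in NC. Of 7 tested 2 were called higher, where 9.75% of all genes tested were. The 2 were Csf1r (log2 1.94 ± 0.34) and Cd68 (log2 1.12 ± 0.16), while Adgre1 was at 0 in TUMOR. Low levels of Fpr1, Fpr2, Il1r2 and Cebpe, at 0.597, 0.18, 0.08 and 0.0667 FPKM in TUMOR, were called higher than in NC too. From the same lists Clec4e, Cebpb and Cebpd were called lower, at log2 -2.85 ± 0.86, -1.86 ± 0.09 and -2.28 ± 0.09. Of the gelatinase and vesicle genes 2 of 9 tested were called higher and 0 lower. Of the mature neutrophil genes 1 of 10 was higher and 1 lower, and of the transcription factors 1 of 8 and 2. Over all genes tested 6.65% were called lower. The part of blood cells in the level of Prtn3 was not tested.

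**Figure D4:**
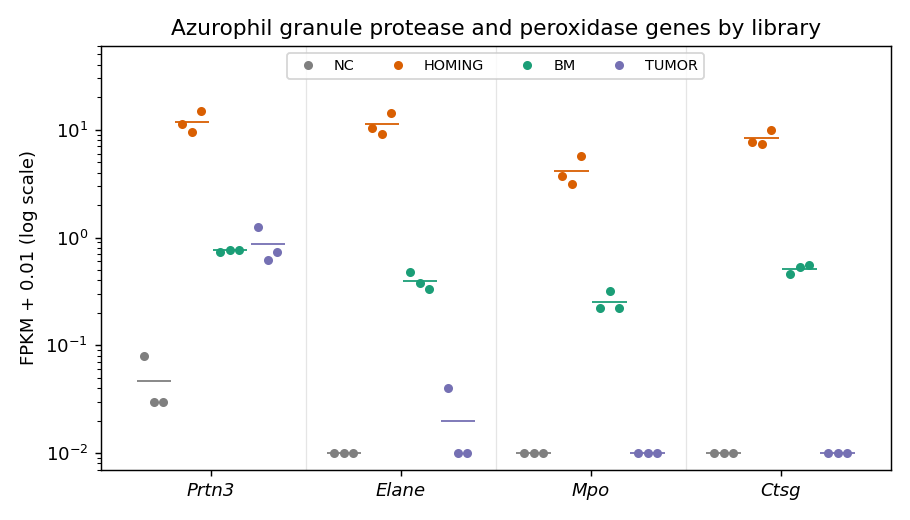
FPKM plus 0.01 on a log scale for Prtn3, Elane, Mpo and cathepsin G (Ctsg), one point per library (replicates 1 to 3 from left to right) and a line at the group mean. All 4 genes are high in HOMING and lower in BM, and in TUMOR Prtn3 is at 0.61 to 1.25 FPKM while Mpo and Ctsg are at 0.

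Between both groups of double-injected mice, 9 of 10 members were called higher in BM than in TUMOR, where 7.28% of all genes tested were called higher and 6.95% lower, and Prtn3 was the exception. Lcn2 was higher by log2 3.08 ± 0.15, S100a8 by 5.0 ± 0.33 and Camp by 4.59 ± 0.36. Mpo was at least 26.5-fold higher, and Elane with 44 counts against 1 gave a ratio of 42.7 (exact 95% interval 7.28 to 1720). TUMOR replicate 1 held most of the counts of several members in that group. Without it the log2 changes of S100a9, Ngp and Ltf went from 6.52 to 7.99, from 5.78 to 7.67 and from 2.93 to 6.47, and those of Elane and Prok2 from 5.01 to 6.88 and from 2.66 to 3.52. In limma on log2(FPKM + 1) 5 members were called, and the calls of Ltf, Mpo, Elane and Prok2 were lost. Prok2 was near the threshold (adjusted p 0.016 in edgeR) and lost its call without BM replicate 3 (adjusted p 0.0714) or TUMOR replicate 3 (0.0509). In TUMOR against HOMING 10 of 10 were called lower, where 6.37% of all genes were and 4.42% were called higher. The filter limit on Ltf, Mpo, Elane, Prtn3 and Prok2 holds there too. Prtn3 changed least at log2 -3.80 ± 0.26, and S100a8 changed by -10.26 ± 0.26. Without TUMOR replicate 1 the log2 changes of S100a9, Ngp, Ltf, Elane and Prok2 there were -13.3, -13.5, -12.11, -11.7 and -9.64.

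Lcn2 was set beside 7 acute phase and inflammatory genes known to be induced with it. In TUMOR against NC 6 of the 7 were called lower, as Lcn2 was, and 0 higher. Over all genes tested 6.65% were called lower and 9.75% higher there. Saa3, an acute phase serum amyloid, went from 229 to 24 FPKM (log2 -3.37 ± 0.24), interleukin 6 (Il6) from 13.3 to 1.81 FPKM (log2 -3.00 ± 0.19) and the metalloreductase gene Steap4 from 8.55 to 0.707 FPKM (log2 -3.71 ± 0.24). Cebpd, a C/EBP factor induced in the acute phase, changed by -2.28 ± 0.09. In BM against HOMING, where Lcn2 was called lower, 1 of the 7 was called lower and 2 higher. Over all genes tested 6.68% were called lower and 3.71% higher there. Saa3 rose from 254 to 956 FPKM (log2 1.94 ± 0.21) and Steap4 from 5.33 to 24.8 FPKM (log2 2.24 ± 0.19), haptoglobin (Hp), also a specific granule protein, fell by 2.64 ± 0.29, and the other 4 were not called. In BM against NC, where Lcn2 was not called, 4 of the 7 were higher, Saa3 (log2 1.98 ± 0.21), Hp, Steap4 and Il6. Over all genes tested 7.93% were called higher and 3.57% lower in that comparison.

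**Figure D5:**
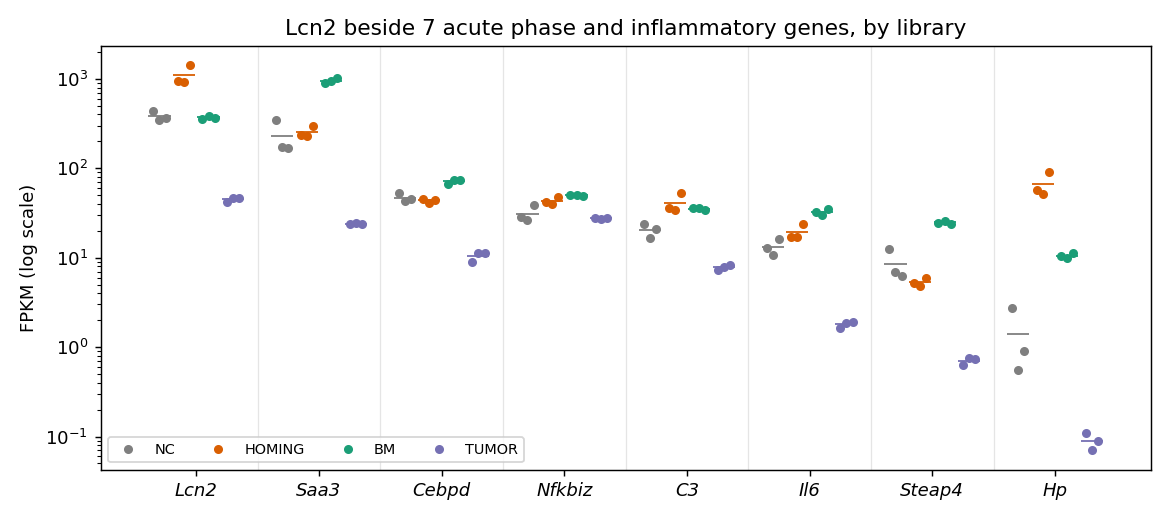
FPKM on a log scale for Lcn2 and 7 acute phase or inflammatory genes, one point per library (replicates 1 to 3 from left to right) and a line at the group mean. Lcn2 and Hp are highest in HOMING, Saa3, Il6 and Steap4 are highest in BM, and TUMOR is lowest for Lcn2, Saa3, Cebpd, C3, Il6, Steap4 and Hp.

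Receptors and inhibitors of the products were described from lists. Of 10 receptor genes 4 passed the filter. The calprotectin receptor gene Tlr4 was at 4.78 FPKM in HOMING and 5.37 in BM and its co-receptor gene Ly96 at 5.28 and 5.17, and neither was called (log2 0.11 ± 0.05 and 0.03 ± 0.13). The lactoferrin-binding receptor gene Lrp1 was at 59.1 and 69.9 FPKM and was not called there, while Fpr2, a receptor of the cathelicidin peptide, fell with the members. The prokineticin receptor gene Prokr2 was at 0 in NC, BM and TUMOR. Among 7 serine protease inhibitor genes 4 were tested. Slpi, the secretory leukocyte inhibitor of elastase, fell from 228 to 53.8 FPKM (log2 -2.05 ± 0.14) and the related gene Wfdc2 rose from 0.12 to 0.74 FPKM (log2 2.69 ± 0.50), while Serpinb1a and Serpinb6a were not called.

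The genes closest to the members in pattern were ranked by Pearson's r of log2(FPKM + 1) over the 12 libraries, which share their groups and their blood-cell content, so r is a description. Nearest to S100a8 were Fcer1g, Ly6c2, Cstdc4, Srgn and Pf4 (r 0.9991 to 0.9976), beside 0.9991 with S100a9 and 0.7484 with Lcn2. Nearest to Ltf were Treml2, Itgb2l, Tgtp2, Gvin1 and Jchain (r 0.9995 to 0.9993), and nearest to Mpo were Prkcb, Bin2, Cd86, Ikzf1 and Cd200r1 (r 0.9993 to 0.9991). Those of Prok2 were Il10, Ms4a6c, Il1r2, Slfn1 and Fcgr1 (r 0.9993 to 0.9989). The r of Lcn2 with the other 9 members lay between 0.5424 and 0.8249.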

How the data were processed

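The 12 libraries were grouped by their sample titles. Per the labels' protocols, sorted cells were flash frozen, RNA was isolated with Trizol, and an Illumina TruSeq RNA kit was used. That kit does not mark strand, so overlapping antisense transcripts cannot be told apart. Per the submitters' processing notes reads were mapped with Bowtie 0.12.2 and build mm8 was used; the sources used here do not name the counting program. In the deposited tables the authors give expected counts (estimated reads per transcript, not normalized) and FPKM rounded to 2 decimals, and transcripts not listed were set to 0.

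Both were summed per Entrez number, and 19629 of 19679 numbers matched a symbol in the RefSeq gene table. Genes without a number took 2.08 to 2.65% of the counts. Summed expected counts were rounded, normalized by TMM (factors 0.929 to 1.039) and tested with edgeR 4.0.16 in R 4.3.3, using 1 mean per group over all 12 libraries; 6 comparisons were tested two-sided and p adjusted over 12314 genes. The SE is the log2 change divided by the square root of F. On simulated counts for these 12314 genes, BM against HOMING recovered 98 of 100 genes changed 3-fold and 100 of 100 changed 6-fold, with 0 false calls. The simulation gave every gene the same spread and its mean level over all 12 libraries. It therefore does not describe members with few counts in a group or a wider spread. No replicate pair agreed within sampling noise (chi-square per degree of freedom 3.19 to 53.14). Replicate numbers are not said to pair samples. Correlations of deviations between groups ran from -0.12 to 0.224, which with 3 libraries a group cannot exclude pairing.

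Members and lists were chosen with earlier results of these data known. From each list up to 4 genes are named, those with the smallest adjusted p in BM against HOMING or, where none was called, the highest FPKM; others named were chosen after their values were seen. Genes nearest to Lcn2 in pattern are not reported here. Alternatives used limma 3.58.1 and DESeq2 1.42.0. Tables and plots were made with Python 3.11.15, pandas 2.3.3, SciPy 1.17.1 and matplotlib 3.10.9.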

Additional observations from a re-analysis of the deposited data

How the results depend on the processing

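For the 51 called changes of single members, 867 values from alternative settings were compared. Each fit gave values for many genes, so these are not separate fits. The setting without a minimum fold reuses the main fit and could not lose a call. Direction and call were kept in 851, the call was lost in 16, of which 14 came from limma, and the direction changed in 0. In limma on log2(FPKM + 1) the number of members called went from 9 to 4 in BM against NC, from 3 to 1 in TUMOR against NC and from 9 to 5 in BM against TUMOR. In limma on log2(FPKM + 0.1) the calls of Ltf in BM against NC (log2 0.83) and of Ltf and Prok2 in BM against TUMOR (0.79 and 0.77) were lost to the 2-fold minimum. Leaving out each library in turn kept the number of members called between 8 and 9 in BM against TUMOR and at the reported number in the other 5 comparisons. The replicate block left the number of members called at 10, 10, 9, 3, 9 and 10 in BM against HOMING, HOMING against NC, BM against NC, TUMOR against NC, BM against TUMOR and TUMOR against HOMING, and it changed no call of a member.

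Changes that were not called turned sign as follows. In TUMOR against NC, S100a9 was at -4.12 on its top transcript, Ngp at -0.22 without NC replicate 1 and -0.05 without NC replicate 2, S100a8 at -0.15 without NC replicate 2, and S100a8, S100a9, Ltf and Ngp at -0.42, -0.66, -2.70 and -1.68 without TUMOR replicate 1. Prtn3 in BM against TUMOR was at 0.22 without TUMOR replicate 1. Over all libraries left out in turn, S100a8 ran from -0.42 to 0.35, S100a9 from -0.66 to 2.8, Ltf from -2.70 to 1.39 and Ngp from -1.68 to 1.31 in TUMOR against NC, and Prtn3 from -0.36 to 0.22 in BM against TUMOR. These rest on few counts, and the cause was not tested. Over all genes, the calls rose without a filter, over 21001 genes, to 2579, 3301, 2536, 3420, 3160 and 2702 from 1280, 1765, 1416, 2019, 1752 and 1329, in the same order. Without a minimum fold they were 7158, 8617, 8198, 9068, 8576 and 6776. In limma on log2(FPKM + 1) they were 626, 1301 and 930 in BM against NC, TUMOR against NC and BM against TUMOR. Scaling by library totals moved the median change of all genes to 0.122 in HOMING against NC and 0.133 in TUMOR against NC, and the share of higher calls in the latter from 59.4 to 69.7%. Depth limits Ltf, Elane, Mpo, Prtn3 and Prok2 outside HOMING, where a group held 0 to 102 counts.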
